A study of Mus musculus with 12 samples.

Results

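The comparison described here set 3 RNA-seq libraries of F1 mouse testes that had received a virus for knockdown of the long non-coding RNA labelled lncRNA8276 against 3 libraries of testes labelled 5NC. These 6 libraries were chosen by their group labels alone, out of 12 libraries in 4 groups of 3, and are called knockdown and control_5NC. The other groups are overexpression of the same RNA and a control labelled 3NC, called control_3NC. All 12 samples are labelled IRC mouse, testis and total RNA, and the labels give no age and do not say which cells the virus reached. The design text lists 5NC beside overexpression and 3NC beside knockdown, so control_5NC is the control of the other construct. The effect of lowering lncRNA8276 and any difference between the 2 viral constructs cannot be told apart in this comparison. For many of the named genes, though not all, the control_3NC and overexpression values are therefore given as well. Nothing in the labels ties the libraries to separate animals. The p-values therefore reflect only the spread among these libraries, which may be technical. The target was not checked, since lncRNA8276 itself was not analysed here.

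The testis makes sperm in ordered steps. Spermatogonia divide by mitosis, spermatocytes cut and repair their chromosomes in meiotic prophase and divide again, and spermatids build the acrosome and tail of the sperm while somatic Sertoli, Leydig and peritubular cells feed and support them. Long non-coding RNAs are unusually numerous in this tissue, and many of them act, where a role is known, on transcription or on the fate of other RNAs. RNA was taken from the whole organ, so fewer cells of a type and less RNA per cell cannot be told apart in any value below.

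Knockdown libraries held 15378514 to 15677904 estimated counts. Control_5NC 1 held 15771655, and control_5NC 2 and 3 held 13847277 and 13699547, which with overexpression 2 (13485479) were the lowest totals of the 12. Markers of germ cells and of the main somatic cells of the testis were present in all 6 libraries: no member of the spermatogonia, division, acrosome, tail, Sertoli or Leydig lists was at 0 in either group. Control_5NC 2 and 3 lay at 41 and 32.2 on the second principal component, and no other library was above 11.7. Control_3NC 2 stood apart at 85.6 on the first component and had the lowest median correlation with the other libraries, 0.948. Correlations of log2 levels between a knockdown and a control_5NC library ran from 0.9724 to 0.9819, and those within knockdown from 0.9768 to 0.9879. Knockdown 1 had the lowest summed level of Leydig markers (1380 CPM, counts scaled to library size, against 2340 and 2920 in its group) and the highest of epididymis markers (742, against 265 and 256). Crisp1, an epididymal secreted protein, was at 166, 9.79 and 0.194 CPM in knockdown libraries 1 to 3 and 9.93, 240 and 98.9 in control_5NC. The part that carried-over duct tissue or a differing share of Leydig cells plays in the results was not tested.

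Of 16395 genes tested, 202 (1.23%) differed between knockdown and control_5NC by edgeR's quasi-likelihood test at an adjusted p below 0.05. Among them 97 (0.592%) were higher in knockdown and 105 (0.64%) were lower. With other tools, limma-voom called 131 genes (0.799%) and DESeq2 859 (6.68%). At an unadjusted p below 0.05 there were 1479 higher (9.02%) and 1323 lower (8.07%). Most changes were modest in size: 80 of the 202 were below 1.5-fold, and the median size was 0.745 on the log2 scale for rises and 0.589 for falls. At least 2-fold changes were 31 rises and 13 falls. In all 202 genes the 3 knockdown libraries did not overlap the 3 of control_5NC, as was also the case for 15.3% (higher) and 14.6% (lower) of all tested genes. The estimated counts of 34 of the 202 carried fractions, which reads split among similar genes would give. Such genes are marked below with "shared counts" and their values are uncertain.

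The number of genes called rested on every one of the 6 libraries. It was 34, 26 and 35 without knockdown 1, 2 and 3, and 54, 27 and 17 without control_5NC 1, 2 and 3. Of the 202 genes, 133 passed in none of these 6 fits and 17 passed in all of them. Each of the other genes lost its call in at least 1 fit. In every fit made, all 202 genes that had a value kept their direction. Under each of 15 alternative settings that gave a value, 16 genes passed: the higher genes Gm40011, A530064D06Rik, Alb, Cyp46a1, Gtf2ird2 and Cacna1e, and the lower genes Gm15127, Marc2, Zmynd8, Capns2, Tuft1, Shisa3, Zfp110, Spo11, Jagn1 and Tmem202. For Alb and Capns2, DESeq2 gave no adjusted p.

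**Figure D1:**
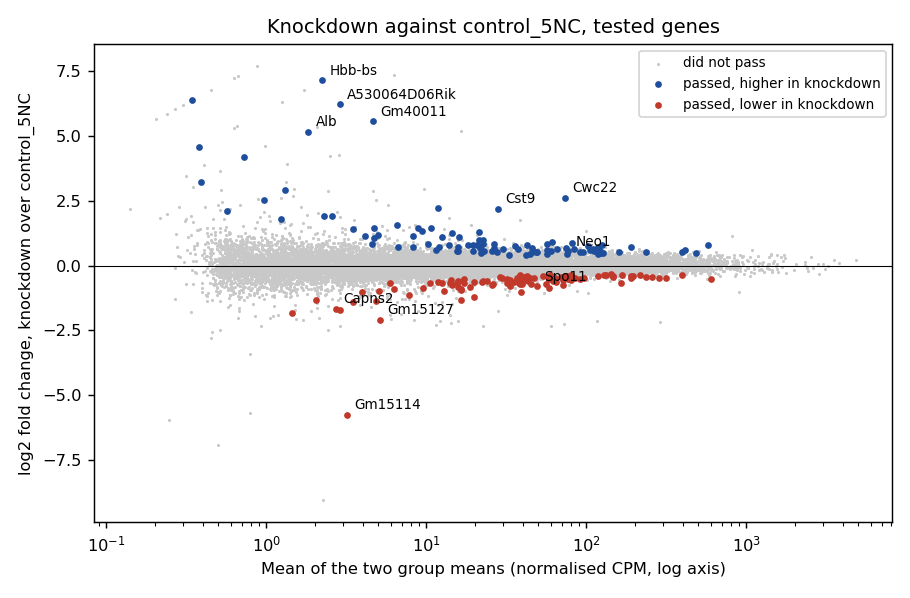
Log2 fold change of knockdown against control_5NC (vertical axis) against the mean of both group means in normalised CPM (horizontal log axis) for the 16395 tested genes. Coloured points are the 97 higher and 105 lower genes that passed at an adjusted p below 0.05, and the largest changes lie among genes of low level.

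The values of the other groups show which side of the comparison stood out. In 154 of the 202 genes (76.2%) the 3 control_5NC libraries lay outside the range of all 9 other libraries, 87 above and 67 below. In 34 genes (16.8%) the 3 knockdown libraries lay outside the range of the other 9, 11 above and 23 below. Among all tested genes these shares were 6.05% for control_5NC and 1.38% for knockdown. The 202 genes were called for a difference between these 2 groups and had no overlap, so their higher shares follow in part from that choice. Control_5NC alone stood apart in 137 of the 202 genes, knockdown alone in 17, both in 17 and neither in 31. In the same fit, knockdown against control_3NC gave 3 genes (0.0183%), overexpression against control_5NC 78 (0.476%) and control_5NC against control_3NC 40 (0.244%). Each of these comparisons shares libraries with knockdown against control_5NC, so they are no independent evidence on it. The small count against control_3NC also includes control_3NC 2, which stands apart from the other libraries. Without that library, knockdown against control_5NC gave 671 genes in place of 202. The count against control_3NC without it was not tested.

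Many of the largest rises were genes at or near 0 in control_5NC. Gm40011, a predicted protein-coding gene at chr2:173082780-173138200, was at 7.79, 9.98 and 9.59 CPM in the knockdown libraries and 0.0628, 0.282 and 0.216 in control_5NC. It was at 9.75, 9.58 and 11.2 in control_3NC and 11.8, 10.7 and 8.75 in overexpression, so the 3 control_5NC libraries were low and all 9 others were high (log2 fold change 5.58 ± 0.303, adjusted p = 4.24e-06). Summed counts were 50.1 times higher in knockdown, with a 95% counting interval of 25.2 to 117 that covers counting error only. The annotated span of Gm40011 overlaps that of Ctcfl, a germ cell paralogue of the chromatin factor Ctcf, and strand was not given, so their reads may not be separable. Ctcfl itself, looked up for this reason, was at 3.58, 3.76 and 3.82 in knockdown and 2.58, 2.68 and 3.02 in control_5NC, a difference that did not pass (log2 fold change 0.43 ± 0.207, adjusted p = 0.321).

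A530064D06Rik, on chromosome 17 and with shared counts, had the same pattern. Its levels were 4.98, 5.32 and 6.8 CPM in knockdown and 0.126, 0.0706 and 0 in control_5NC. Control_3NC was at 5.9, 5.32 and 4.46 and overexpression at 5.52, 4.77 and 7.43, again far above control_5NC (log2 fold change 6.23 ± 0.431, adjusted p = 3.69e-05). Its neighbour 9830107B12Rik, which lies 5589 bases away and also has shared counts, summed to 34 counts in knockdown and 1 in control_5NC, a ratio of 32.1 (95% counting interval 5.39 to 1310, adjusted p = 0.0113). Psg17, one of the pregnancy-specific glycoprotein genes, had 32 counts in knockdown and 0 in the 3 control_5NC libraries. Taken against a floor of 3 counts over the group it was at least 10.1-fold higher (adjusted p = 0.0265), a call that held in 1 of the 6 fits that leave out a library.

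Of the adult beta-globin genes, Hbb-bs rose and Hbb-b1 fell. Hbb-bs and Hbb-bt are the adult genes of the s haplotype of the mouse beta-globin locus, and Hbb-b1 and Hbb-b2 those of the d haplotype. Hbb-bs was at 7.73, 2.92 and 2.72 CPM in knockdown and 0, 0 and 0.0719 in control_5NC, where a single count was found in all, and it was at 13, 14.2 and 6.02 in control_3NC and 3.35, 1.25 and 9.55 in overexpression. The ratio of summed counts was 197, with a 95% counting interval of 34.9 to 7800 (log2 fold change 7.17 ± 1.29, adjusted p = 0.0385), and the call held in 0 of the 6 fits that leave out a library. Hbb-bt was at 2.23, 0.908 and 0.713 in knockdown and 0, 0.0706 and 0 in control_5NC and did not pass (log2 fold change 5.38 ± 1.22, adjusted p = 0.0601). Hbb-b1 was at 10.9, 14.3 and 10.4 in knockdown and 21.7, 35.2 and 25.8 in control_5NC, with no overlap (log2 fold change -1.22 ± 0.26, adjusted p = 0.0489). Hbb-b2 did not pass (log2 fold change -1.15 ± 0.379, adjusted p = 0.155). Hbb-bs, Hbb-bt and Hbb-b1 have shared counts. The summed level of the blood and erythroid list was 96.3 to 116 in knockdown and 103 to 131 in control_5NC, so the totals overlapped. All samples carry the same strain label, and a difference in genetic background between the groups was not tested.

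Several better-expressed genes were also low in control_5NC alone. Gtf2ird2, a transcription factor of the TFII-I family, was at 15.2, 21.3 and 21.8 CPM in knockdown and 4.34, 4.38 and 3.74 in control_5NC, where the libraries were tightly grouped (log2 fold change 2.22 ± 0.234, adjusted p = 0.0014). In control_3NC it was at 23.4, 16.7 and 14.9 and in overexpression at 17.7, 18.4 and 11.3. Cwc22, a splicing factor that loads the exon junction complex, was at 194, 78.6 and 106 in knockdown and 17.2, 24.4 and 20.1 in control_5NC (log2 fold change 2.62 ± 0.472, adjusted p = 0.0418). The lowest knockdown library was thus more than 3-fold above the highest control_5NC library, and levels within knockdown were uneven. Cwc22 was at 65.8, 83.8 and 78.9 in control_3NC and 108, 52.1 and 188 in overexpression. Cst9, a cystatin made by Sertoli cells, was at 41.1, 22.9 and 73.7 in knockdown and 8.04, 11.8 and 10.4 in control_5NC (log2 fold change 2.19 ± 0.383, adjusted p = 0.0345), against 40.9, 39.7 and 66.1 in control_3NC. The call for Cst9 held in 2 of the 6 fits that leave out a library, and that for Cwc22 in 0.

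Other large rises were A630023A22Rik (log2 fold change 1.93, adjusted p = 0.0145) and Gm46918 (2.55, 0.0345), both with shared counts. Rph3a, a synaptic vesicle protein that binds Rab3, rose by 1.90 ± 0.372 on the log2 scale (adjusted p = 0.0389). The plot of the largest rises shows the same arrangement for most of them, with the control_5NC symbols to the left of the other groups.

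**Figure D2:**
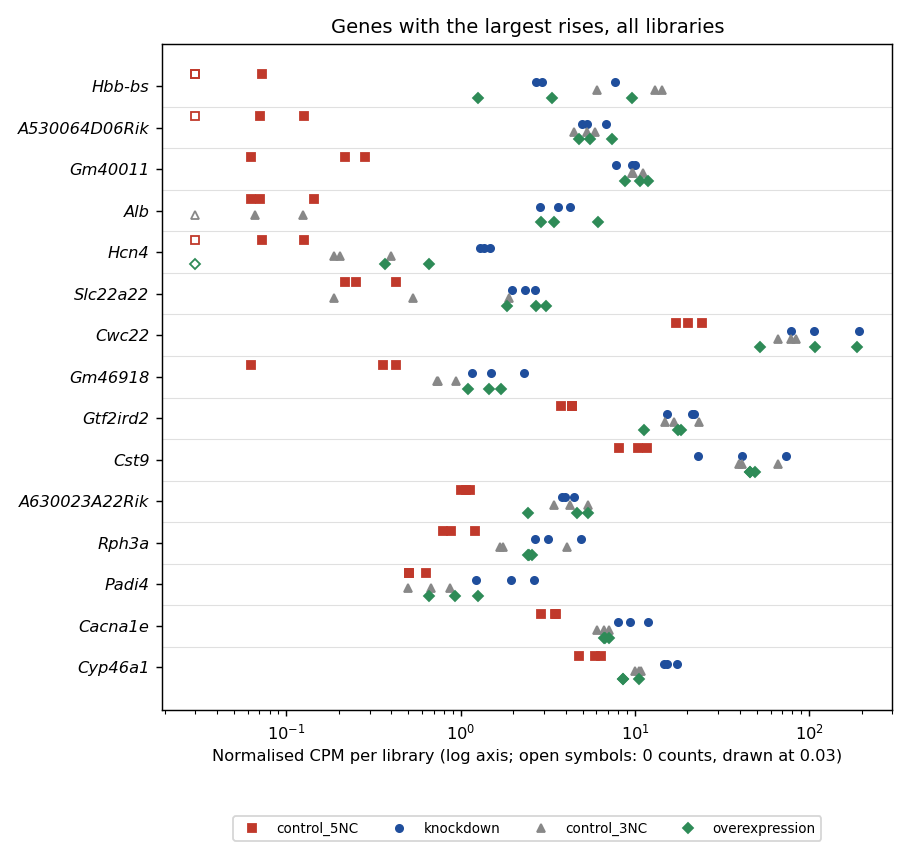
Normalised CPM (log axis) in each of the 12 libraries for the genes with the largest rises, 1 symbol per library and 1 colour per group. For Gm40011 the control_5NC libraries lie between 0.0628 and 0.282 and the other groups overlap each other above them; open symbols mark libraries with 0 counts.

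A smaller set of genes had its highest levels in knockdown. Cyp46a1, the enzyme that turns cholesterol into 24-hydroxycholesterol, was at 17.4, 15.2 and 14.6 CPM in knockdown and 6.41, 4.8 and 5.9 in control_5NC (log2 fold change 1.46 ± 0.148, adjusted p = 0.00112). Control_3NC was at 10.5, 9.96 and 10.8 and overexpression at 10.6, 8.52 and 8.55, so these groups lay between. Cacna1e, the pore subunit of the R-type calcium channel, was at 11.9, 9.33 and 8.03 in knockdown and 3.46, 2.89 and 3.52 in control_5NC (log2 fold change 1.57 ± 0.171, adjusted p = 0.00157). Control_3NC (7.1, 6.64 and 6.09) and overexpression (7.1, 6.68 and 6.76) were again in between. For both genes knockdown was above, and control_5NC below, all other libraries.

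Neo1, neogenin, a receptor for netrins and repulsive guidance molecules, was at 90.4, 88.3 and 95.6 CPM in knockdown and 58.6, 66.1 and 62.9 in control_5NC (log2 fold change 0.55 ± 0.0849, adjusted p = 0.0145). Control_3NC was at 58.6, 58.5 and 55.3 and overexpression at 65.3, 68.3 and 57.9, so here knockdown alone stood above the 9 other libraries. Against control_3NC, with the same knockdown libraries, the values were log2 fold change 0.67 ± 0.0851, adjusted p = 0.0207. Of the 15 tested members of the netrin receptor and ligand list, Neo1 was the 1 that passed, 0 passed as lower, and the median log2 fold change was -0.01, against -0.01 over all genes. Hcn4, the pacemaker channel gene that lies 11504 bases from Neo1 on chromosome 9, was at 1.47, 1.36 and 1.3 in knockdown and 0.126, 0 and 0.0719 in control_5NC. Its summed counts were 20.2 times higher (95% counting interval 6.6 to 100, adjusted p = 0.046), and control_3NC (0.398, 0.188 and 0.203) and overexpression (0.657, 0.367 and 0) were below knockdown too. Padi4, a peptidylarginine deiminase that converts arginine in histones to citrulline, was at 2.62, 1.94 and 1.23 in knockdown and 0.503, 0.635 and 0.503 in control_5NC (log2 fold change 1.81 ± 0.371, adjusted p = 0.047). For Padi4, control_3NC was at 0.862, 0.501 and 0.676 and overexpression at 1.25, 0.661 and 0.928, which just overlapped knockdown. The calls for Hcn4 and Padi4 held in none of the 6 fits that leave out a library, and that for Neo1 in 1.

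Genes best known from liver, adrenal and kidney were among the rises. Alb, serum albumin, was at 4.21, 2.85 and 3.63 CPM in knockdown and 0.0628, 0.0706 and 0.144 in control_5NC. It was at 0.0663, 0.125 and 0 in control_3NC but at 2.89, 3.45 and 6.1 in overexpression, so both control groups were near 0 and both groups given an lncRNA8276 construct were not. Summed counts were 166 in knockdown and 4 in control_5NC, a ratio of 39.2 with a 95% counting interval of 15 to 146 (log2 fold change 5.17 ± 0.524, adjusted p = 0.00112). Against control_3NC, Alb gave log2 fold change 5.60 ± 0.545, adjusted p = 0.00354. Serpina3k, a liver serine protease inhibitor, had 33 counts in knockdown and 3 in control_5NC, a ratio of 10.4 (95% counting interval 3.26 to 53, adjusted p = 0.0388). Of 15 tested liver genes these 2 passed, 0 passed as lower, 6 were higher at an unadjusted p below 0.05 (9.02% over all genes) and the median was 0.76. The summed level of the 25 liver genes was 82.7 to 95.6 in knockdown and 67.4 to 71.7 in control_5NC, without overlap. In control_3NC it was 98.9, 131 and 74.8, which spanned the knockdown values, so the sum did not follow the pattern of Alb. The list holds Trf, which is also on the Sertoli list. At 0 in control_5NC was 1 of the 25 and in knockdown 0. The part of RNA from another tissue in these values was not tested.

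Cyp21a1, the steroid 21-hydroxylase best known from the adrenal cortex, was at 12.9, 8.69 and 12.5 CPM in knockdown and 5.22, 5.65 and 4.6 in control_5NC (log2 fold change 1.14 ± 0.179, adjusted p = 0.0146). It was at 5.84, 5.63 and 5.68 in control_3NC and 16.3, 11.9 and 12.9 in overexpression, so as with Alb the 2 control groups were low and the other groups high. Among 21 tested Leydig cell and steroid synthesis genes it was the 1 that passed, 0 passed as lower, and the median was -0.12. Summed Leydig markers overlapped between the groups, at 1380 to 2920 in knockdown and 2020 to 2690 in control_5NC. Slc22a22, a prostaglandin transporter of the organic anion family, was at 1.98, 2.66 and 2.33 in knockdown and 0.251, 0.424 and 0.216 in control_5NC (log2 fold change 2.94 ± 0.632, adjusted p = 0.0489).

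Among the falls, 3 neighbouring X-linked genes stood out. Gm15127, at chrX:148663588-148703849, was at 1.53, 1.69 and 2.59 CPM in knockdown and 8.11, 8.26 and 8.41 in control_5NC (log2 fold change -2.09 ± 0.197, adjusted p = 0.000822). Control_3NC was at 5.84, 5.76 and 6.56 and overexpression at 4.66, 5.51 and 5.11, so knockdown was below all 9 other libraries and control_5NC above them. Against control_3NC the values were log2 fold change -1.64 ± 0.196, adjusted p = 0.0168. Gm15114, 142142 bases away, was at 0, 0 and 0.324 in knockdown and 6.03, 5.93 and 6.83 in control_5NC, a ratio of summed counts of 58.2 in favour of control_5NC (95% counting interval 24.6 to 181, adjusted p = 0.0243). Its call held in 1 of the 6 fits that leave out a library, with log2 fold changes from -9.56 to -5.20, and was kept without knockdown 3 alone. It was also low in overexpression (0.131, 0.147 and 1.46) but not in control_3NC (3.78, 4.32 and 5.61). Luzp4, a leucine zipper gene next to them, was at 4.09, 5.19 and 5.44 in knockdown and 9.43, 10.9 and 11.8 in control_5NC (log2 fold change -1.13 ± 0.22, adjusted p = 0.0388), a call that held in 0 of those fits, whereas that for Gm15127 held in all 6. All 3 genes have shared counts, so the split of reads among them is uncertain.

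Falls outside this region were mostly genes that were high in control_5NC alone. Capns2, a small regulatory subunit of calpain proteases, was at 1.15, 1.3 and 1.43 CPM in knockdown and 4.4, 3.95 and 4.03 in control_5NC (log2 fold change -1.67 ± 0.205, adjusted p = 0.00363). Control_3NC (1.06, 1.06 and 1.29) and overexpression (1.51, 1.32 and 1.39) overlapped knockdown and lay well below control_5NC. Zmynd8, a reader of histone marks with shared counts, was at 9.45, 8.82 and 10.04 in knockdown and 26.4, 22.5 and 21.9 in control_5NC (log2 fold change -1.32 ± 0.15, adjusted p = 0.00206). It was at 10.3, 12.2 and 8.39 in control_3NC and 16.9, 15.1 and 19.2 in overexpression, the latter between the 2 groups compared. Marc2, a mitochondrial amidoxime-reducing enzyme, was at 22.3, 25.3 and 29.99 in knockdown and 53.9, 51.8 and 50.8 in control_5NC (log2 fold change -1.01 ± 0.108, adjusted p = 0.0014).

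The other large falls were genes of low level with varied roles. Ctsk, the collagen-degrading cathepsin K, fell from 1.76, 2.47 and 2.52 to 0.575, 0.648 and 0.648 CPM (log2 fold change -1.83 ± 0.334, adjusted p = 0.0303). Tgm6, a transglutaminase, fell by 1.70 in log2 (adjusted p = 0.0293) and Sh2b2, an adaptor of receptor tyrosine kinases, by 1.42 (0.0398). Nkx2-4, a homeobox gene, had a log2 fold change of -1.003 (0.0478) and Col17a1, a hemidesmosomal collagen, one of -0.99 (0.0326). Knockdown and control_5NC did not overlap for any of these genes. For Ctsk, Tgm6 and Nkx2-4 control_5NC lay above all other libraries, and for Sh2b2 knockdown lay below them. For Col17a1 neither group stood apart in this way. Knockdown against control_3NC gave a log2 fold change of -0.05 for Tgm6. Tmem202, Jagn1, Tuft1, Shisa3 and Zfp110, which passed under every setting, were lower by smaller amounts, with log2 fold changes of -0.59, -0.65, -0.77, -0.71 and -0.65. Jagn1, an endoplasmic reticulum protein, is known for its need in neutrophil development.

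**Figure D3:**
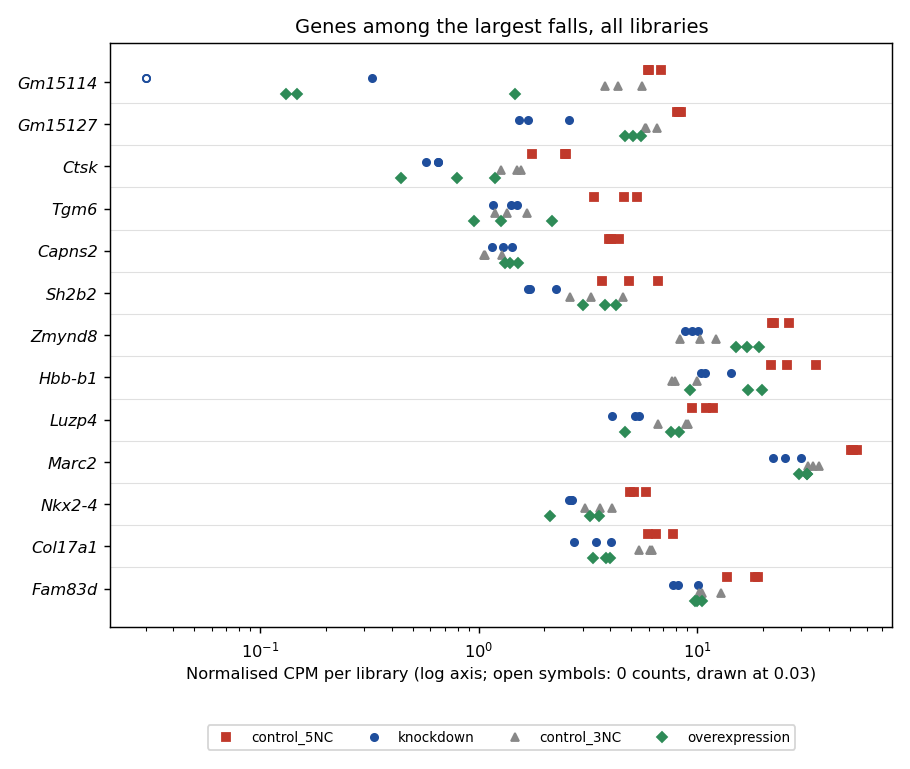
Normalised CPM (log axis) in each of the 12 libraries for genes among the largest falls, with colours by group and open symbols for 0 counts. Capns2 and Marc2 show control_5NC above every other library, whereas knockdown is also the lowest group for Gm15127.

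Several genes of meiosis and cell division fell in knockdown relative to control_5NC. Spo11, the enzyme that makes the DNA double-strand breaks of meiotic recombination, was at 31.5, 36.9 and 38.6 CPM in knockdown and 57.2, 62.5 and 66.4 in control_5NC (log2 fold change -0.80 ± 0.102, adjusted p = 0.00453). It was at 43.3, 44.9 and 46.5 in control_3NC and 29.96, 34.7 and 34.2 in overexpression, so control_5NC was above all 9 other libraries. Cdk1, the main kinase of entry into M phase, was at 30.6, 34.2 and 33.8 in knockdown and 49.2, 48.4 and 48.6 in control_5NC (log2 fold change -0.57 ± 0.0798, adjusted p = 0.00908). Control_3NC was at 36.7, 38.3 and 36.6 and overexpression at 37.5, 34.9 and 35.1; knockdown lay below and control_5NC above both. The Spo11 call held in all 6 fits that leave out a library and the Cdk1 call in 4, being lost without knockdown 1 and without control_5NC 3.

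Cyclin A1 and a crossover factor changed less. Ccna1, the germ cell cyclin needed for meiotic division, was at 123, 116 and 107 CPM in knockdown and 154, 146 and 149 in control_5NC (log2 fold change -0.38 ± 0.0771, adjusted p = 0.0467). Cntd1, which matures crossovers and has shared counts, was at 129, 122 and 124 and 151, 175 and 173 (log2 fold change -0.41 ± 0.0894, adjusted p = 0.0494). Both calls were lost in each fit that leaves out a library. For both genes control_5NC lay above all other libraries. Against control_3NC, the log2 fold changes of knockdown were -0.02 for Ccna1 and 0.07 for Cntd1. Aurkb, a kinase of the chromosomal passenger complex, was at 14.2, 12.8 and 11.5 and 19.6, 17.1 and 19 and did not pass (log2 fold change -0.53 ± 0.123, adjusted p = 0.0607).

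Few members of the meiosis and division lists passed. Of 24 tested genes of late prophase and division, 0 rose and 2 fell (Cdk1 and Ccna1). At an unadjusted p below 0.05, 8 were lower and 1 higher (8.07% and 9.02% over all genes), and the median was -0.13. Of 15 double-strand break genes 1 fell (Spo11), with a median of -0.12, and of 20 genes of the meiotic axis, synapsis and crossover 1 fell (Cntd1), with a median of -0.05. The summed level of the double-strand break list was 424 to 448 in knockdown and 437 to 602 in control_5NC, which overlapped through control_5NC 1. None of 21 tested spermatogonial genes passed, and their median was -0.12. Lhx1, a stem cell transcription factor and the one with the lowest p, did not pass (log2 fold change -0.70 ± 0.277, adjusted p = 0.222).

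Outside the lists, other genes of mitosis and DNA synthesis were lower in knockdown than in control_5NC. They were chosen after their values were seen, and no theme was tested. Ndc80, which ties kinetochores to microtubules, was at 27.5, 28.1 and 25.2 CPM in knockdown and 37.6, 39.5 and 42.6 in control_5NC (log2 fold change -0.57 ± 0.106, adjusted p = 0.0326). Dlgap5, a spindle protein, gave a log2 fold change of -0.63, Fam83d, a spindle-positioning protein, -0.98, Birc5, survivin, -0.36 with shared counts, and Ccnf, an F-box cyclin, -0.51. Gmnn, geminin, which blocks re-replication, was at -0.49, Rrm1, a ribonucleotide reductase subunit, at -0.32, and Rpa1, which coats single-stranded DNA, at -0.44. The cyclin-dependent kinases Cdk6 (-0.67, shared counts), Cdk8 (-0.68) and Cdk14 (-0.53) were also lower. For every gene of this paragraph control_5NC lay above all other libraries. Knockdown also lay below all others for Birc5, Cdk8 and Cdk14 alone. The calls for Ndc80, Dlgap5, Birc5, Ccnf, Gmnn and Rrm1 held in 0 of the 6 fits that leave out a library. Those for Cdk6 and Cdk14 held in 1, and those for Fam83d, Rpa1 and Cdk8 in 2.

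The promoters of these division genes were read because several such genes are known to carry the cell cycle genes homology region, an element that ties transcription to the cell cycle, with the core letters TTTGAA. Within 250 bases before and 50 after the RefSeq start, searched on both strands, TTTGAA was found in 4 of the 8 division genes that had a promoter entry: Cdk1, Ccnf, Fam83d and Ndc80. The 10 genes searched for, Cdk1, Ccna1, Birc5, Ndc80, Dlgap5, Ccnf, Fam83d, Gmnn, Rrm1 and Rpa1, were picked after their values were seen. The letters were found in 2044 of 12980 tested genes with an entry (15.7%). A match is a description of letters, not of a bound site. The 130 bases before the start of 3 of the genes are shown because they hold these matches, 5′ to 3′ on the gene's strand, with capitals for TTTGAA or its reverse complement (RefSeq, GRCm38.p6): Cdk1 at chr10:69352913-69353042 on the minus strand, Ccnf at chr17:24251410-24251539 on the minus strand and Fam83d at chr2:158767969-158768098 on the plus strand.
Cdk1: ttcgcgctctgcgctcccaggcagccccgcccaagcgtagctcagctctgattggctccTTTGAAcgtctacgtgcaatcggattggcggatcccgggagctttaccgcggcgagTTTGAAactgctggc
Ccnf: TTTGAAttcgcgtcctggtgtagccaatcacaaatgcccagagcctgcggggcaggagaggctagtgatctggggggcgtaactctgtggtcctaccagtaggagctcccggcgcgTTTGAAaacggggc
Fam83d: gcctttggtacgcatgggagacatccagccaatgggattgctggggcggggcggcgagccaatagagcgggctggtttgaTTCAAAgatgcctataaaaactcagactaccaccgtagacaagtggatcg

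**Figure D4:**
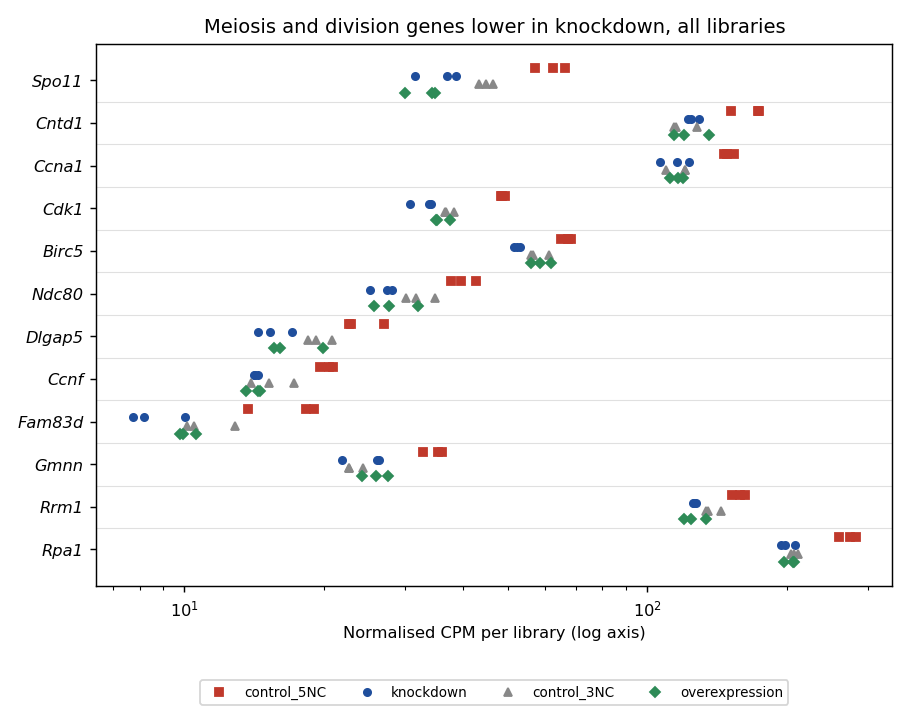
Normalised CPM (log axis) in each of the 12 libraries for Spo11, Cntd1, Ccna1, Cdk1 and 8 further division and DNA synthesis genes that passed. Control_5NC lies above knockdown for each gene with no overlap; for Spo11, control_3NC (43.3 to 46.5) lies between them.

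Lists of the later, haploid steps had medians from -0.04 to 0.23 and few calls. Of 27 tested genes of the acrosome and sperm-egg fusion, 0 passed in either direction. At an unadjusted p below 0.05, 11 were higher and 3 lower (9.02% and 8.07% over all genes), and the median was 0.22, against -0.01 over all genes. The summed level of that list was 3960 to 4090 in knockdown and 3690 to 3840 in control_5NC, without overlap. Of single tested genes, 15.3% were likewise higher without overlap. In control_3NC the sum was 3850, 3410 and 4600. Control_3NC 2, the library that stands apart, was the only one below both groups, and control_3NC 3 lay above both. Lyzl6, a sperm lysozyme-like protein and the member with the lowest p, was at 98, 98.8 and 98.5 CPM in knockdown and 69.3, 69.6 and 67.9 in control_5NC but did not pass (log2 fold change 0.51 ± 0.119, adjusted p = 0.0607).

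The sperm surface ADAM list held 1 call. Adam21, a testis metalloprotease-like membrane protein, was at 57.3, 61.6 and 55.1 in knockdown and 40.2, 40.2 and 41.1 in control_5NC (log2 fold change 0.52 ± 0.0923, adjusted p = 0.0287). None of the 24 passed as lower, 6 were higher and 2 lower at an unadjusted p below 0.05 (9.02% and 8.07% over all genes), and the median was 0.18. None of 31 tail and fibrous sheath genes passed (median 0.08), nor any of 14 kinases of a list drawn up as testis-specific (0.23). Of 14 CatSper channel genes (-0.04), 17 spermatid transcription regulators (0.13) and 15 genes of spermatid chromatin (0.05), none passed. Members with the lowest p in these lists, in the same order, were Cfap44 (-0.32, adjusted p = 0.0543), Nek2 (-0.32, 0.0685), Catsper1 (0.56, 0.0768), Rfx4 (0.46, 0.0586) and Prm1 (-0.33, 0.187). Summed tail genes were 23800 to 25000 in knockdown and 22000 to 22800 in control_5NC, while summed chromatin genes overlapped. In control_3NC summed tail genes were 25800, 21300 and 26200. Control_3NC 2, the library that stands apart, lay below both groups, and the other libraries of control_3NC lay above both.

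Several spermatid and sperm genes outside the lists passed, and are named after their values were seen. Lrrc18, a testis leucine-rich repeat protein, was at 561, 588 and 549 CPM in knockdown and 384, 421 and 414 in control_5NC (log2 fold change 0.48 ± 0.0817, adjusted p = 0.0239). Cabyr, a calcium-binding protein of the fibrous sheath, was at 469, 508 and 513 and 355, 312 and 315 (log2 fold change 0.60 ± 0.131, adjusted p = 0.0495). Dcst1 and Dcst2, sperm membrane proteins needed for fertilization, gave log2 fold changes of 0.67 and 0.62, but their annotated spans overlap and their reads may not be separable. Sox6, a transcription factor gene, rose by 0.87, Spata31 by 0.54, Spata31d1d by 0.72 and Cpeb2, an RNA-binding translation regulator, by 0.51. Spag6l, a protein of the axoneme's central pair, went down instead (-0.35). Of the calls in this paragraph, that for Sox6 held in 2 of the 6 fits that leave out a library, and the others in 0. Control_5NC alone lay outside the range of all other libraries for Lrrc18, Sox6, Spata31, Spata31d1d and Spag6l. For Cabyr, Dcst1, Dcst2 and Cpeb2 neither group did.

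Markers of somatic cells gave few calls. Of 27 tested Sertoli genes Cst9 rose and 0 passed as lower, 6 were higher at an unadjusted p below 0.05 (9.02% over all genes), and the median was 0.02. Their summed level was 1930 to 2090 in knockdown and 1710 to 1890 in control_5NC, without overlap (15.3% of single tested genes were higher without overlap). In control_3NC it was 1860, 2150 and 1820. Control_3NC 2, the library that stands apart, lay above the knockdown values, and the other libraries of control_3NC lay below them. None of the tested genes passed in the lists of peritubular and smooth muscle cells (14 genes, median 0.31), endothelial cells (18, 0.12), macrophages and leukocytes (20, -0.08) or adipose tissue (15, 0.43). Summed macrophage and leukocyte markers reached 663 CPM in control_3NC 2, whose values enter the shared spread, so differences in these markers may have been missed. Adipoq, adiponectin, had the lowest p of the adipose genes (log2 fold change 0.50 ± 0.153, adjusted p = 0.129). That list summed to 1360 to 1420 in knockdown and 1120 to 1180 in control_5NC, and to 1520, 1260 and 1480 in control_3NC. Sox17, a vascular transcription factor, had the lowest p of the endothelial genes (log2 fold change -0.57 ± 0.128, adjusted p = 0.0568), Tpm2, a tropomyosin, of the muscle cell genes (log2 fold change 0.73 ± 0.31, adjusted p = 0.257) and Mrc1, the mannose receptor, of the macrophage genes (log2 fold change -0.29 ± 0.184, adjusted p = 0.448).

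No call was made in the type I interferon response list. None of 23 tested genes passed, 0 reached an unadjusted p below 0.05 in either direction, and the median was -0.42. Summed levels were 78.9 to 135 in knockdown and 109 to 235 in control_5NC, which overlapped. They reached 846 in control_3NC 2. The 4 groups share their spread in the fit, so differences in these genes may have been missed. Irf9, a subunit of the interferon-activated transcription complex, had the lowest p (log2 fold change -0.79 ± 0.485, adjusted p = 0.448). Actn2, a muscle actin crosslinker, was the 1 of 12 skeletal muscle genes that rose, and 0 passed as lower. Its levels were 16.3, 16.9 and 19.3 in knockdown and 12.5, 8.26 and 9.78 in control_5NC (log2 fold change 0.78 ± 0.158, adjusted p = 0.0444). Control_5NC lay below all other libraries for Actn2, and knockdown against control_3NC gave a log2 fold change of 0.02. Aqp9, a water and glycerol channel on the epididymis and duct list, fell from 93.1, 99.8 and 102 to 75.5, 70.8 and 64.7 CPM (log2 fold change -0.48 ± 0.0925, adjusted p = 0.0353). It was the 1 of 13 tested members that passed; 7 of the 13 had a log2 fold change above 0.

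Of the lists of general cell functions, 3 held calls. Egr3, an immediate early transcription factor, was the 1 of 25 MAPK and immediate early genes that passed (log2 fold change 0.84 ± 0.176, adjusted p = 0.0472). Gsr, glutathione reductase, was the 1 of 24 glutathione genes (log2 fold change -0.55 ± 0.121, adjusted p = 0.0494), and it fell. Dchs1, a protocadherin of the Fat signalling pathway, and Trim6, a ubiquitin ligase, were the 2 that rose of 19 tested neighbours of the beta-globin genes on chromosome 7, of which 0 passed as lower. Dchs1 was at 12.6, 14.7 and 12.8 in knockdown and 5.4, 5.22 and 5.39 in control_5NC (log2 fold change 1.32 ± 0.205, adjusted p = 0.0145), and Trim6 at 9.96, 4.86 and 6.09 and 3.08, 3.11 and 2.95 (log2 fold change 1.19 ± 0.236, adjusted p = 0.0404). Dchs1 was at 22.4, 19 and 12.6 in control_3NC and 26, 20.6 and 30.5 in overexpression. Trim6 was at 10.3, 11.4 and 9.6 and 6.77, 7.42 and 8.82 in these groups. Both genes were thus low in control_5NC alone. Each call held in 1 of the 6 fits that leave out a library.

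None of the 25 tested genes of the cytosolic ribosome passed, but 7 were lower at an unadjusted p below 0.05 (8.07% over all genes) and 0 higher, with a median of -0.06. Their summed level was 4350 to 4610 in knockdown and 4780 to 4860 in control_5NC, without overlap (14.6% of single tested genes were lower without overlap). In control_3NC it was 4660, 5320 and 4630. Of 25 oxidative phosphorylation genes 0 passed, 5 were lower and 0 higher at an unadjusted p below 0.05 (8.07% and 9.02% over all genes), and the median was -0.11. They summed to 2990 to 3040 in knockdown and 3200 to 3260 in control_5NC, also without overlap. In control_3NC they summed to 3090, 2900 and 3080. Control_3NC 2, the library that stands apart, lay below the knockdown values, and the other libraries of control_3NC lay above them. Rps27l, a ribosomal protein paralogue, and Cox8c, a testis form of a cytochrome oxidase subunit, had the lowest p of these lists (log2 fold change -0.50 ± 0.134, adjusted p = 0.0902; log2 fold change -0.37 ± 0.105, adjusted p = 0.103). Outside the lists, and named after their values were seen, Rps29 (-0.44), the mitochondrial transcription factor Tfam (-0.40) and the mitochondrial transhydrogenase Nnt (-0.42) fell.

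No gene passed in the lists of cholesterol synthesis, germ cell glycolysis, junctions of the blood-testis barrier, matrix and integrins, stress and apoptosis, piRNA silencing, DNA and histone modification or replication-dependent histones. Members with the lowest p in their lists were Idi1 (log2 fold change -1.05, adjusted p = 0.0886), Pfkp (-0.29, 0.101), Lama2 (-0.38, 0.0607), Hspa5 (-0.34, 0.094), Morc1 (-0.65, 0.11), Hdac11 (0.62, 0.0823) and Hist1h4a (0.88, 0.16). The plot of the gene lists gives the members of all 36 lists side by side.

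**Figure D5:**
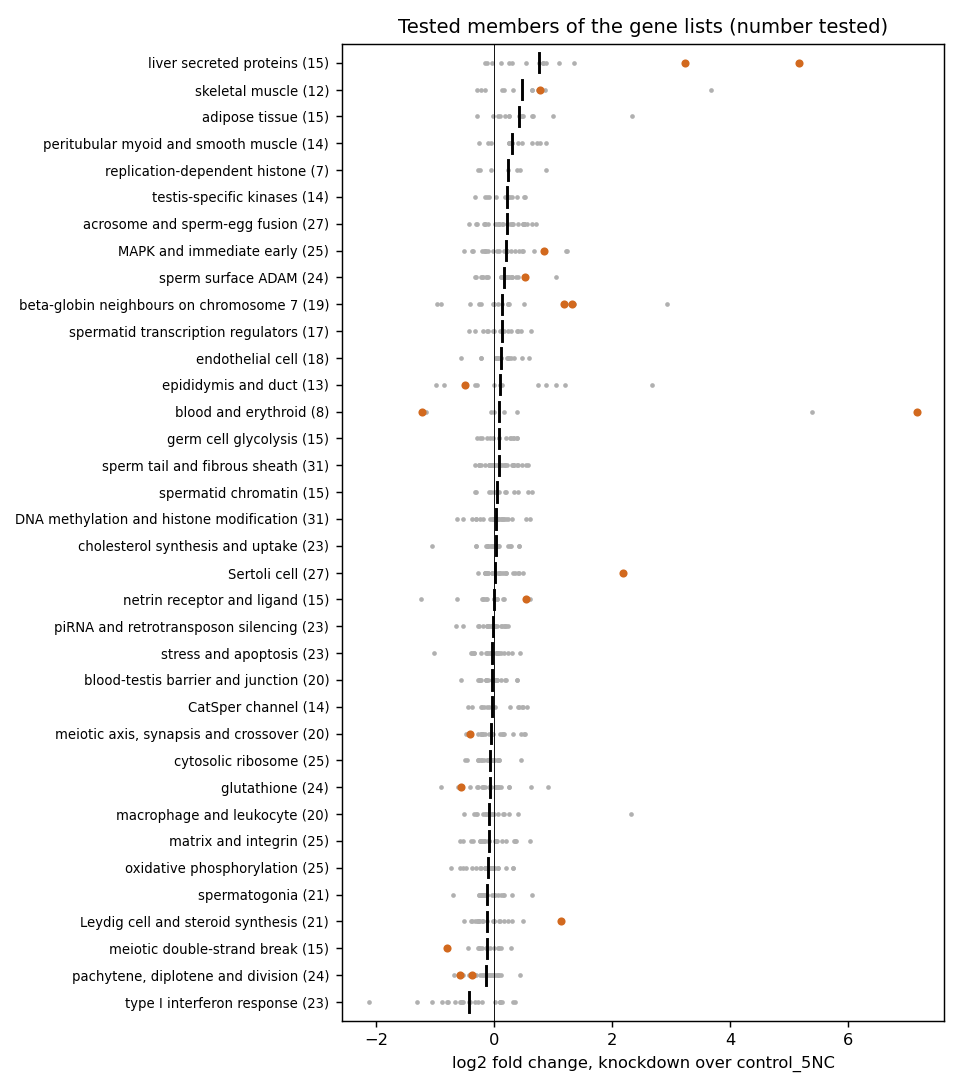
Log2 fold change of knockdown against control_5NC for the tested members of each gene list, 1 point per gene, with the list median marked and genes that passed shown in colour. List medians run from -0.42 (type I interferon response) to 0.76 (liver secreted proteins).

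Some genes that passed lay near each other. Of the 198 with a position in the RefSeq table (GRCm38.p6), 45 (22.7%) lay within 500000 bases of another gene that passed, as did 2189 of 16064 tested genes that did not pass (13.6%). The 45 formed 20 groups of neighbours, and in 14 of them all members went the same way. The number to expect without any link between neighbours was not worked out. Reads may not be separable in some groups. The annotated spans of A630023A22Rik and Antxrl overlap, as do those of Dcst1 and Dcst2. Gm15114, Gm15127 and Luzp4 have shared counts, as do 9830107B12Rik and A530064D06Rik. On chromosome 7, Zfp110, Zfp128 and Zscan22, zinc finger genes, and Chmp2a, a subunit of the membrane-remodelling ESCRT machinery, all fell (log2 fold changes -0.65, -0.61, -0.76 and -0.45). On chromosome 5, Gtf2ird2 and Limk1, an actin-regulating kinase, both rose (2.22 and 1.08), 437893 bases apart. On chromosome 2, Spo11 and Gm40011 lay 89204 bases apart and went in opposite directions, Spo11 down and Gm40011 up. Chromosome 5 had the highest share of tested genes that passed, 23 of 1019 (2.26%), and the Y chromosome had 0 of 115. No test of these arrangements was made.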

How the data were processed

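Total RNA of 12 mouse testis libraries was measured by RNA-seq. The values are the authors' estimated counts for each gene, per the file headers, and 88.2% of them are whole. The submitters' processing notes name mm10 as the build. The aligner, counting program, annotation and strand setting were not given in the sources used here. A further 18 columns, from 9 other samples, were left aside.

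Estimated counts were rounded and tested in R 4.3.3 with edgeR 4.0.16. The filterByExpr function (minimum count 10) kept 16395 of 20788 genes, and the 4393 left out held 0.0707% of counts. After TMM scaling, 1 robust quasi-likelihood model with a mean per group took in all 12 libraries, so the 4 groups lend each other their spread (common dispersion 0.0388). The contrast was knockdown minus control_5NC, with Benjamini-Hochberg adjustment over all tested genes and a threshold of 0.05. Values after ± are standard errors, levels are normalised CPM (counts scaled to a common library size), and a list's summed level is the sum of its members' CPM. Without molecular identifiers, reads are not independent molecules.

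Named genes were the 15 largest rises and 15 largest falls that passed with a mean of at least 1 CPM in either group and no overlap, every list member that passed, the member with the lowest p where none passed, and 12 genes of earlier results: Spo11, Cdk1, Aurkb, Dchs1, Alb, Neo1, Cyp21a1, Cst9, Hbb-b1, Hbb-bs, Gtf2ird2 and Capns2. Some genes that this rule takes are not reported here. The genes and lists were chosen with earlier results of these data known. On simulated counts (16269 genes tested) the test of this comparison found 25.4% of the 1.5-fold changes, 62.7% of the 2-fold ones and 84.6% of the 4-fold ones, and 5.79% of its calls were false. Counts were drawn for each gene on its own with the spread fitted here, and no shift shared by many genes was put in. The false share therefore does not cover such shifts in the real libraries. Libraries of a group all differed by more than counting noise. Alternatives were other scalings and filters, DESeq2 1.42.0, limma-voom (limma 3.58.1), fewer libraries, a replicate block and a term for low totals. Sequences come from RefSeq tables on GRCm38.p6.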

Additional observations from a re-analysis of the deposited data

How the results depend on the processing

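The count of 202 genes (97 higher, 105 lower) moved with the settings, while all 202 kept their direction wherever they had a value. DESeq2 gave 859 genes of 12858 with an adjusted p (6.68%; 471 higher, 388 lower) and limma-voom 131 (0.799%; 54 higher). With no filter on low counts there were 113 (51 higher, 62 lower), and with scaling by total counts alone 295, of which 155 were higher. A fit of only the 6 libraries compared gave 1239 (801 higher, 438 lower), and 198 of the 202 were among them. The fit without control_3NC 2, a library that stands apart (median correlation 0.948 with the others), gave 671 (416 higher, 255 lower). Leaving out 1 library of the 2 groups compared gave 17 to 54 genes (7 to 23 higher, 10 to 31 lower), with fewer samples behind each. Adding a covariate for the 3 lowest totals (control_5NC 2 and 3 and overexpression 2) left 32 (11 higher, 21 lower), and 28 of them were among the 202; since 2 of the 3 control_5NC libraries carry this covariate, low total and group cannot be fully told apart. The share of calls higher in knockdown was 64.6% in the fit of 6 libraries, 62% without control_3NC 2, 60.1% with the block and 34.4% with the low-total term. A fit of genes with whole counts only, added after seeing the data, gave 180. Mrc1, which did not pass, changed sign with the low-total term, from -0.29 to 0.034; the cause was not tested. A replicate block gave 601 genes (361 higher, 240 lower). Same-numbered libraries of knockdown and control_5NC had deviations correlated at -0.11, -0.08 and -0.01, and no library correlated best with its own number. These values gave no sign of pairing between the 2 groups. Pairing over all 4 groups, which the block takes in together with control_3NC 2, was not tested. At this depth and spread, the simulation recovered 25.4% of 1.5-fold changes, so a gene that did not pass is not shown to be equal.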

Other observations

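Among the genes that passed were several ion channels, a group put together after the values were seen and not tested as a group. Kcna1, a voltage-gated potassium channel of axons, was at 1.02, 1.04 and 0.713 CPM in knockdown and 0.126, 0.141 and 0.36 in control_5NC, and its summed counts were 4.52 times higher (95% counting interval 2.17 to 10.5, edgeR adjusted p = 0.0494). Kcnab2, a cytoplasmic potassium channel subunit, rose from 17.8, 13.5 and 14.2 to 30.2, 35.3 and 24.4 (edgeR, log2 fold change 0.98 ± 0.159, adjusted p = 0.0179). P2rx3, an ATP-gated cation channel, was at 53.8, 59.4 and 56.8 in knockdown and 37.3, 31.3 and 36.4 in control_5NC (edgeR, log2 fold change 0.70 ± 0.13, adjusted p = 0.0329). Knockdown lay above control_5NC in every library of these 3 genes. Lower in knockdown was Orai1, the pore of the store-operated calcium channel, at 15.1, 12.3 and 12.5 in knockdown and 23.8, 19.3 and 20.6 in control_5NC (edgeR, log2 fold change -0.67 ± 0.128, adjusted p = 0.0353).

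Regulators of transcription also passed in both directions, again gathered after their values were seen. Rxra, the retinoid X receptor alpha, was at 26.5, 28.7 and 36 CPM in knockdown and 13.7, 10.6 and 12.4 in control_5NC, with 27.2, 23.2 and 11.8 in control_3NC and 28.4, 20.05 and 26 in overexpression (edgeR, log2 fold change 1.31 ± 0.26, adjusted p = 0.0424). Prox1, a homeobox factor of lymphatic and liver development, was at 16.9, 21.2 and 20.6 and 11.8, 12.4 and 11.1 (edgeR, log2 fold change 0.74 ± 0.14, adjusted p = 0.0353), and Pou2f2, an octamer-binding factor, at 10.3, 10.05 and 10.4 and 6.28, 6.64 and 5.68 (edgeR, log2 fold change 0.72 ± 0.134, adjusted p = 0.0318). Rfx8, a member of the RFX family, was lower, at 63.4, 64.7 and 62.3 and 91.9, 84.6 and 93.3 (edgeR, log2 fold change -0.50 ± 0.0735, adjusted p = 0.0113). For Prox1, Pou2f2 and Rfx8 control_5NC alone lay outside the range of all other libraries, and for Rxra neither group did. The calls for Rxra, Prox1 and Pou2f2 held in 0 of the 6 fits that leave out a library, and that for Rfx8 in 2.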
